A study of Mus musculus with 4 samples.

Results

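Small heat shock proteins and the cochaperone Bag3 were followed in mouse fibroblasts on arrays labelled WT (wild type) and Zip13KO, together with Hspa1b and Hsf1. The members were 10 genes given by symbol: Hspb1, Hspb2, Hspb3, Hspb6, Hspb7, Hspb8, Cryab, Bag3, Hspa1b and Hsf1. A gene entered through the row of the table that carried its symbol alone, and where it had several such rows 1 was chosen by its mean log2 intensity over the 4 arrays, the brightest being kept. By this rule 8 of the 10 members had a row among the 22180 genes tested. Hspb2 shared its row with Cryab, and Hsf1 was not analysed here.

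The study compared 2 arrays of total RNA per genotype on a single-colour Affymetrix Mouse Gene 2.0 ST design, with no treatment named. Zip13, the protein of Slc39a13, is a zinc transporter of the secretory pathway, and the series' stated interest was zinc balance around the Golgi. The labels call the samples biological replicates of fibroblasts. They give no strain, age, body site, passage or construction of the knockout allele, nor do they state whether each replicate was a different animal or culture. The p-values below therefore measure only how far these samples lie apart, and some of that spread may be technical.

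Small heat shock proteins share an alpha-crystallin domain, assemble into oligomers and hold unfolding proteins without using ATP, so that HSP70 machines can refold them or hand them to degradation. HSPB8 works in a complex with BAG3, which also binds HSP70 and steers damaged clients such as filamin to autophagy in cells under mechanical load. CRYAB, or alphaB-crystallin, and HSPB1 bind actin and intermediate filaments, and many members of the family are abundant in muscle. HSF1 is the transcription factor that induces much of this set after heat and other protein-damaging stress.

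Hspb8 and Cryab were far lower on the arrays labelled Zip13KO, and Hspa1b, an inducible HSP70, was lower as well. Hspb1 was slightly higher. Bag3, Hspb6, Hspb7 and Hspb3 did not pass the test. In the limma fit over all genes, 17.1% of genes were past the threshold of an adjusted p under 0.05, 10.1% lower and 7.00% higher on the arrays labelled Zip13KO. Hspb8 was already known as a large fall when the members were chosen, and its difference is described without a test. Of the other 7 members, 2 fell, 1 rose and 4 did not pass. Nothing about the family is read from this count, since earlier results of these arrays were known when the genes were chosen. The median difference (Zip13KO minus WT) over the 8 members, Hspb8 included, was -0.14 log2 units, against -0.00 over all genes. For the same reason this median is only a description, and nothing about the family is read from it.

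**Figure D1:**
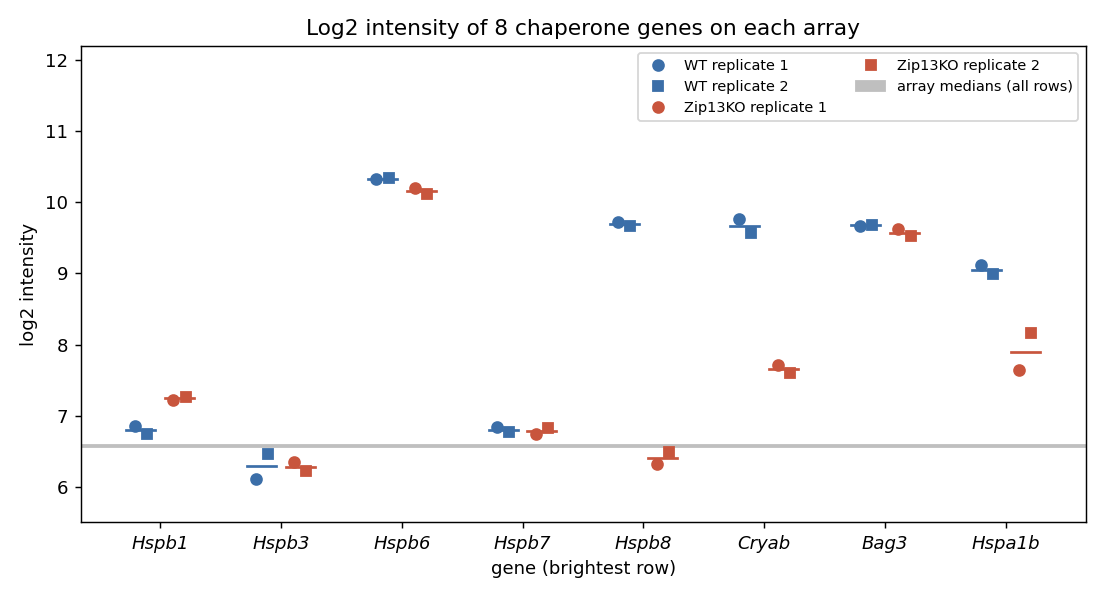
Log2 intensity (vertical axis) of the brightest row of each of 8 genes (horizontal axis) on 2 WT arrays in blue and 2 Zip13KO arrays in red; short lines are group means and the grey band holds the medians of the 4 arrays over all rows. Hspb8 lies near 9.70 in WT and at 6.32 and 6.49 in Zip13KO, below the band, while Bag3 stays between 9.52 and 9.69.

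Hspb8, the small heat shock protein that partners BAG3, had log2 intensities of 9.73 and 9.67 on the WT arrays and of 6.32 and 6.49 on the Zip13KO arrays. The groups were far apart, and both Zip13KO values lay below the medians of the arrays, which ran from 6.56 to 6.59. The difference was -3.30 log2 units (SE 0.08), or 9.82-fold lower, from 9.70 ± 0.04 to 6.40 ± 0.12 (SD, n = 2 each). On the linear scale the deposited intensity went from 848 and 817 to 79.9 and 89.8. No detection limit was given with the values, so whether the Zip13KO arrays measured any Hspb8 RNA above background cannot be told from them. In bulk RNA, fewer cells of a type and less RNA per cell cannot be told apart.

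Cryab read 9.76 and 9.57 in WT against 7.71 and 7.61 in Zip13KO. The groups did not overlap, and their distance was many times the gap between the arrays of a group. Cryab fell by 2.01 log2 units (SE 0.08, 95% interval -2.18 to -1.84), which is 4.02-fold (limma adjusted p = 4.44e-12). Its Zip13KO values stayed above the array medians, unlike those of Hspb8.

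Cryab had a further row of its own, which was dimmer and moved the same way by less. That row read 7.60 and 7.74 in WT and 6.98 and 6.80 in Zip13KO, a difference of -0.78. In a fit of all 41345 rows, adjusted over rows, it passed with an adjusted p of 0.0102 by limma, and the brighter row with 0.000290. The mean of both rows put Cryab at -1.39, so the size of its fall depends on the row while its direction does not.

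Hspb2, a small heat shock protein of heart and skeletal muscle, lies beside Cryab in the genome, and the row that names both genes is the only one for it here. It read 6.96 and 7.00 in WT and 6.85 and 6.73 in Zip13KO, a little above the array medians. The difference of -0.19 (SE 0.08) did not pass over all rows (limma adjusted p = 0.319). Since the row is shared, it gives no separate value for either gene.

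**Figure D2:**
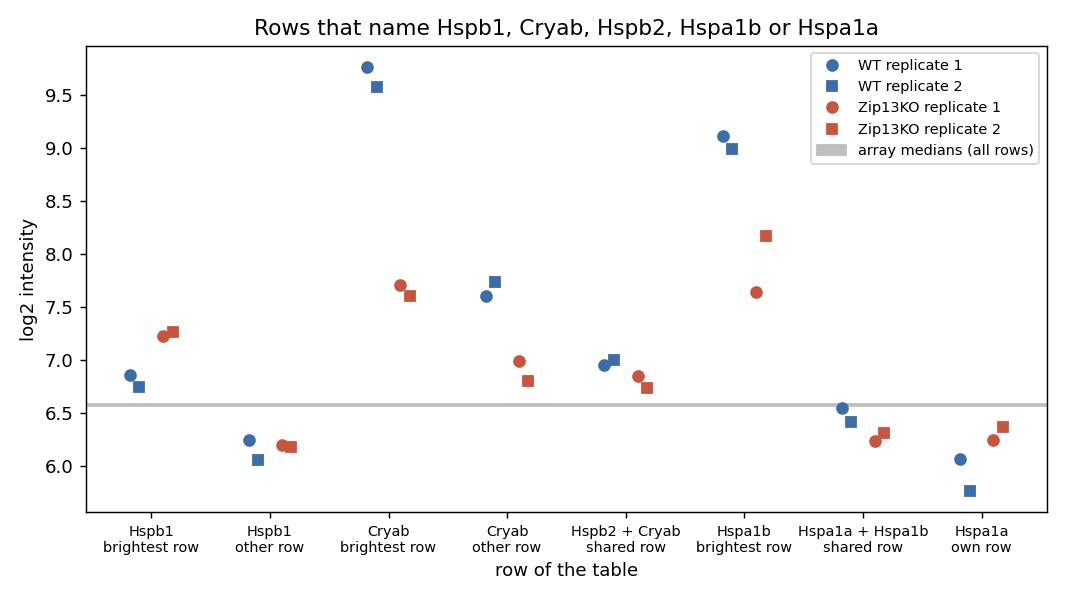
Log2 intensity (vertical axis) on each WT array (blue) and Zip13KO array (red) for every row that names Hspb1, Cryab, Hspb2, Hspa1b or Hspa1a (horizontal axis, with the kind of row); the grey band holds the medians of the arrays. The Cryab rows are both lower in Zip13KO, with differences of -2.01 and -0.78 log2 units, while the shared and dim rows differ by less.

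Hspb1, the Hsp25 protein of mouse, which guards actin filaments, moved the other way. Its brightest row read 6.85 and 6.75 in WT and 7.23 and 7.26 in Zip13KO, without overlap and close to the array medians. It rose by 0.44 log2 units (SE 0.08, 95% interval 0.27 to 0.62), or 1.36-fold (limma adjusted p = 0.000639). A dimmer row of Hspb1 lay below the median on every array and differed by 0.04. As the mean of both rows the difference was 0.24 and the call was lost (limma adjusted p = 0.0527).

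Hspb6, or Hsp20, a small heat shock protein of smooth muscle and heart that phosphorylation regulates, was bright in both groups. It read 10.33 and 10.34 in WT and 10.20 and 10.12 in Zip13KO. The groups did not overlap, as was the case for 51.5% of all genes. Its difference of -0.18 (95% interval -0.32 to -0.04) did not pass the test over all genes (limma adjusted p = 0.0817), which leaves a fall of more than 0.32 outside the interval.

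Hspb7, the cardiovascular member, read 6.84 and 6.77 in WT and 6.74 and 6.82 in Zip13KO, so the groups overlapped. Hspb3, a member found mainly in muscle, read 6.11 and 6.46 in WT and 6.34 and 6.22 in Zip13KO, below the array medians throughout. The differences were -0.02 (95% interval -0.19 to 0.15) and -0.00 (-0.22 to 0.21), with limma adjusted p = 0.923 and 0.990. Both rows are dim, so a change of these genes may not be visible on this array.

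Bag3, the cochaperone that links HSPB8 to HSP70, read 9.67 and 9.69 in WT and 9.62 and 9.52 in Zip13KO. Its values were bright and close together, with the Zip13KO arrays slightly lower. The difference was -0.10 (SE 0.07, 95% interval -0.25 to 0.04, limma adjusted p = 0.409). Bag3 thus did not fall by anything like the amount seen for its partner Hspb8. Within arrays the log2 ratio of Hspb8 to Bag3 changed by -3.19, from a WT mean set to 0 (SD 0.05) to -3.33 and -3.06 in Zip13KO. The log2 ratio of Cryab to Hspb6 changed by -1.83 (SD 0.13 in WT and 0.02 in Zip13KO, n = 2 each). These ratios are given as descriptions. An exact two-sided permutation of the arrays gave p = 0.333 for each ratio, the lowest that its 6 splits allow, so it decides nothing.

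Hspa1b, a stress-inducible HSP70 that refolds proteins with BAG family cochaperones, read 9.11 and 8.99 in WT and 7.64 and 8.17 in Zip13KO. The groups did not overlap, but the Zip13KO arrays lay further apart (SD 0.37) than the WT arrays (SD 0.09). Hspa1b fell by 1.15 log2 units (SE 0.12, 95% interval -1.40 to -0.90), or 2.22-fold (limma adjusted p = 1.22e-06). With a variance prior that allows for outlying genes the adjusted p was 0.00958. The difference was -0.88 without Zip13KO replicate 1 and -1.41 without Zip13KO replicate 2, past the threshold each time.

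Hspa1a is the near-identical neighbour of Hspa1b, and an array may not separate their transcripts, which was not tested here. The row named for Hspa1a alone lay below the array medians on every array, at 6.07 and 5.76 in WT and 6.25 and 6.37 in Zip13KO. It rose by 0.39 (limma adjusted p = 0.00692), a call that was lost without WT replicate 2 (0.24, adjusted p = 0.152) and when all rows were fitted (0.147). A row named for both genes was dim as well and differed by -0.21 (limma adjusted p = 0.287 over all rows). Which gene gave the bright Hspa1b signal is therefore uncertain.

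**Figure D3:**
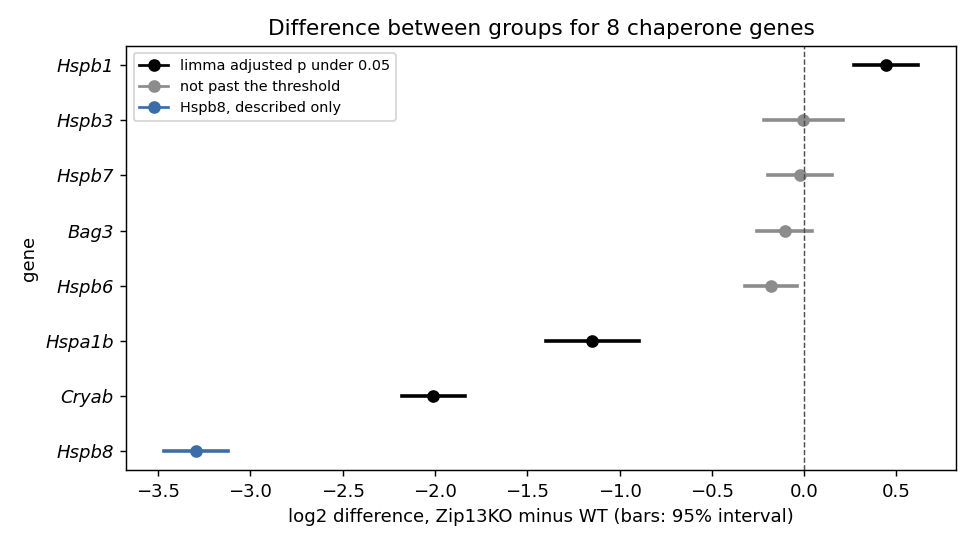
Difference between groups in log2 units (horizontal axis, Zip13KO minus WT) for 8 genes (vertical axis); points are estimates and bars 95% intervals of the limma fit, black where the adjusted p is under 0.05, grey where it is not, and blue for Hspb8, which is described only. Hspb8, Cryab and Hspa1b lie at -3.30, -2.01 and -1.15, while Hspb3, Hspb6, Hspb7 and Bag3 lie between -0.18 and -0.00.

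Heat shock factors bind inverted repeats of the unit GAA, so the RefSeq promoters of the members were searched for them on both strands. Each promoter (GRCm38.p6) covers 250 bases before the gene's start and 50 after it. There were 8 promoters for 7 members, with a pair for Hspb6 and none used for Cryab, Hspb2 and Hsf1. The pattern GAANNTTC was found in the promoters of 6 members (Hspb8, Hspb1, Hspa1b, Bag3, Hspb3 and 1 of those of Hspb6) but not of Hspb7. It was found in 7.86% of all 32851 promoters. The other arrangement, TTCNNGAA (8.52% of all promoters), was in no member's promoter. Neither was the longer GAANNTTCNNGAA (0.603%), which contains both shorter patterns and reads TTCNNGAANNTTC on the other strand. The CArG box, the binding motif of serum response factor, was in none either (1.63% of all promoters), and TATAAA, found in 13.6% of all promoters, was in those of Hspb3 and Hspb6. These matches are letters in a fixed window and do not show that a factor binds there.

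The promoters of the gene with the widest difference (Hspb8), of the gene that rose (Hspb1) and of Hspa1b are shown so that their matches can be set side by side, with a short stretch of Bag3. They read 5′ to 3′ on the gene's strand, and capitals mark GAANNTTC. The Hspb8 stretch (chr5:116422845-116423094, minus strand) ends shortly after the gene's start, and its match covers bases 3 to 10 of the transcript. The Hspb1 stretch (chr5:135887669-135887918, plus strand) holds 2 matches, which begin 117 and 97 bases before the start. The Hspa1b stretch (chr17:34959239-34959488, minus strand) holds 1, beginning 104 bases before the start. The match of Bag3 (chr7:128523603-128523632, plus strand) covers bases 43 to 50 of the transcript.
Hspb8: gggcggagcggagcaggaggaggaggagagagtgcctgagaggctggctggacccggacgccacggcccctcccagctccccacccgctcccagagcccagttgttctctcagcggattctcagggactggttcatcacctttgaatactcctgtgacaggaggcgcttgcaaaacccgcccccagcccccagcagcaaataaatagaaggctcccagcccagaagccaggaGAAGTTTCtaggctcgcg
Hspb1: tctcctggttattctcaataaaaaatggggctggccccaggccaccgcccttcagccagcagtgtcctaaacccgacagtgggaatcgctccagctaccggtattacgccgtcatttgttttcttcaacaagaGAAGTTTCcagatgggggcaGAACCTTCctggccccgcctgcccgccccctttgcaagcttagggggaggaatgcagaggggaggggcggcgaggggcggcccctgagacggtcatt
Hspa1b: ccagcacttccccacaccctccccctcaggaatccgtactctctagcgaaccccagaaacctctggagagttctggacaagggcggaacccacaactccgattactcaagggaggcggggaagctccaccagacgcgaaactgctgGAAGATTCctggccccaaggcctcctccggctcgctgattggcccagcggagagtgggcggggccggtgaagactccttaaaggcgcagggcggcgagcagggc
Bag3: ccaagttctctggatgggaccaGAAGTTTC
Over all the promoters searched, a match is present in Hspb8 and Hspa1b, which were lower, in Hspb1, which rose, and in Bag3, Hspb3 and Hspb6, which did not pass. The promoter windows of Hspa1a and Hspa1b differ at 4 of 300 positions. Their transcripts beyond the first 50 bases were not compared.

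Of 17 measured genes next to a member on its chromosome and not members themselves, 2 passed in limma, against 17.1% of all genes, a count from which nothing particular to these places is read. Snx18, a sorting nexin beside Hspb3, fell by 0.82 (adjusted p = 1.67e-07), and Hspa1a, beside Hspa1b, is described above. On either side of Hspb8, Ccdc60 differed by -0.07 and Srrm4 by 0.02 (limma adjusted p = 0.713 and 0.942). The fall of Hspb8 was thus not accompanied by a called change of either adjacent gene.

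The genes whose profile over the 4 arrays was most like that of Hspb8 were found by the Euclidean distance between log2 values, each profile centred on its mean. In order they were Igfbp7 (distance 0.188), Nrn1 (0.192), Postn (0.433), Arsj (0.492) and Papss2 (0.552). They encode, in that order, a secreted binding protein, a neuronal surface protein, the matrix protein periostin, a sulfatase and a sulfate donor synthase. Their differences ran from -3.68 to -2.75, beside -3.30 for Hspb8. As the mean of its rows Arsj was at -1.56, so its place here depends on the row used. Among the members Cryab was nearest to Hspb8 (distance 1.31), followed by Hspa1b (2.16), with Hspb1 the farthest (3.74). With 4 arrays in 2 groups this measure mainly compares the size of the group difference.

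In the remaining chaperone network every difference was below 2-fold, although a larger share of genes passed than over all genes. Over 9 lists of chaperones, cochaperones, heat shock factors and autophagy partners, 97 genes other than the members were measured, of which 20 fell and 6 rose. That is 26.8%, against 17.1% of all genes, with a median difference of -0.08. Most of the 97 genes lay above the array medians on every array. The share over all genes also takes in dim rows and was not matched for brightness. The lists were chosen with earlier results known, so nothing about the network is read from this share or those of its lists. None of the 97 genes passed with a change of 2-fold or more in either direction, the range being -0.80 to 0.92. The lists share some genes, and each gene is counted once in these totals. With all 41345 rows fitted and adjusted together, calls over these and the marker lists dropped from 43 to 21. Among the genes that the naming rule gave for these lists, some did not pass then (limma adjusted p from 0.0547 to 0.310). They included Hspa4l, Dnajb1, Tcp1, Hsf4, Hsbp1, Dnajb5, Dnajb14, Hsp90b1, Bag1, Odf1, Cd68, Cd14 and Csf1r.

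**Figure D4:**
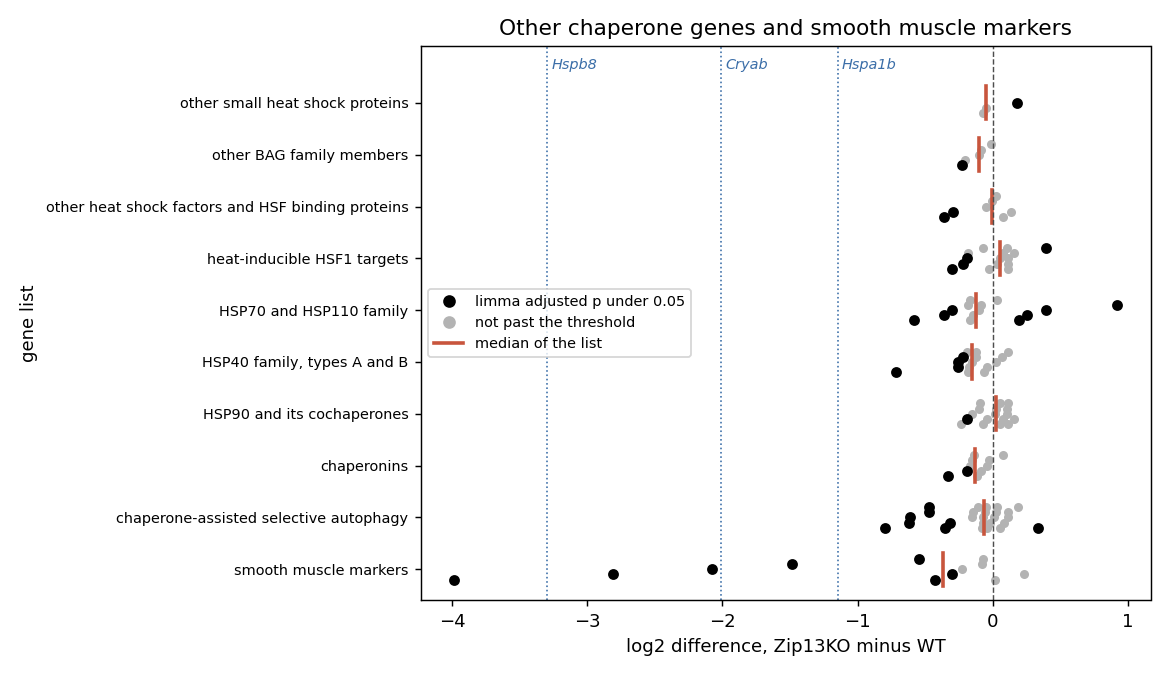
Difference between groups in log2 units (horizontal axis, Zip13KO minus WT) for each gene of 9 chaperone lists and of the smooth muscle markers (vertical axis); black points passed limma's threshold, grey points did not, red bars are list medians and dotted blue lines mark Hspb8, Cryab and Hspa1b. The genes of the chaperone lists, which leave out the members, lie between -0.80 and 0.92. The 4 smooth muscle markers with the widest falls lie between -3.99 and -1.49, and the others between -0.55 and 0.23.

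Among genes induced by HSF1, the members were left out of the list, Hspa1b and Cryab with their larger falls included. Of the 15 others measured, 1 rose and 3 fell (26.7%), with a median of 0.05. Those that passed were Hspa1a, given above, Hspa4l (-0.30), an HSP110 relative, Dnajb1 (-0.22), the HSP40 that feeds clients to HSP70, and Tcp1 (-0.19), a chaperonin subunit. Hspa4l lost its call without WT replicate 1 (-0.21, limma adjusted p = 0.225) or Zip13KO replicate 1 (-0.17, 0.200). Dnajb1 lost its call without WT replicate 1 (-0.21, adjusted p = 0.205), WT replicate 2 (-0.24, 0.12) or Zip13KO replicate 1 (-0.17, 0.230) in limma. Tcp1 was lost without the same arrays (adjusted p = 0.138, 0.155 and 0.0930 in limma), and the mean of its rows was 0.01. Among the other heat shock factors and their binding proteins, 2 of 7 fell (28.6%). They were Hsf4, by 0.36 (limma adjusted p = 0.00348), and Hsbp1, a small inhibitor of HSF1, by 0.30 (0.00299). Hsbp1 lost its call without WT replicate 1 (-0.25, limma adjusted p = 0.0538).

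Of 14 HSP70 and HSP110 genes, 4 rose and 3 fell, a larger share than the 17.1% of all genes, with a median of -0.12. Hspa1a, given above, was among those that rose, although its row lay below the array medians throughout. Hspa9 rose by 0.25 (limma adjusted p = 0.00482) and Hspa4 by 0.20 (0.0422), both named after their values were seen. Hspa12b, a distant relative of HSP70 found in endothelium, rose by 0.92 (SE 0.08, limma adjusted p = 1.33e-07). Hspa13, a microsomal member, fell by 0.58, and Hspa5, the endoplasmic reticulum chaperone BiP, fell by 0.36. Of 15 HSP40 genes 4 fell and none rose in limma (26.7%). Dnajb11, a partner of BiP, fell by 0.71 (limma adjusted p = 9.03e-07). Dnajb5 (-0.26) and Dnajb14 (-0.26) passed, but with any 1 array left out they did not, at adjusted p from 0.0710 to 0.138 and from 0.0635 to 0.172 in limma.

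Of 17 genes of HSP90 and its cochaperones only 1 passed (5.88%, against 17.1% of all genes). It was Hsp90b1, the HSP90 of the endoplasmic reticulum (-0.19, limma adjusted p = 0.0327). Its call was lost without WT replicate 1 (-0.21, limma adjusted p = 0.0901), WT replicate 2 (-0.17, 0.211) or Zip13KO replicate 1 (-0.13, 0.159). Of 10 chaperonin genes 2 fell, Tcp1 and Cct8 (-0.33, limma adjusted p = 0.000788), both subunits of the cytosolic ring that folds actin and tubulin. Among 5 other BAG genes, Bag1 fell by 0.23 (limma adjusted p = 0.040). That call was lost without WT replicate 1 (-0.20, limma adjusted p = 0.245), WT replicate 2 (-0.26, 0.0776) or Zip13KO replicate 1 (-0.18, 0.198). Among 3 other small heat shock proteins, the sperm tail gene Odf1 passed at 0.18 (limma adjusted p = 0.0461). Odf1 lost its call without WT replicate 1 (0.21), WT replicate 2 (0.15) or Zip13KO replicate 1 (0.16). It was also lost with the arrays centred on their medians (limma adjusted p = 0.0546). As the mean of its rows Odf1 was at 0.08 (limma adjusted p = 0.58), so its call depends on the row used.

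Partners of BAG3 in chaperone-assisted autophagy changed in part. Of 26 measured, 7 fell and 1 rose (30.8%), with a median of -0.06. Flna, a filamin that links actin filaments, fell by 0.80 (SE 0.08, limma adjusted p = 5.29e-07), Amotl2, an angiomotin relative, by 0.62, Stx7, a syntaxin of late endosomes, by 0.61 and Gabarapl2, an autophagosome protein, by 0.47. The gene that rose was Gabarapl1 (0.34, limma adjusted p = 0.00195). Flnc, the muscle filamin and a client of BAG3, differed by -0.15 (limma adjusted p = 0.288), and Sqstm1, the autophagy receptor, by 0.06 (0.688). Gabarapl1, Flnc and Sqstm1 were named after their values were seen.

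Several smooth muscle markers were lower in the arrays in which Hspb8 and Cryab were lower. Of 12 measured markers, 7 fell and none rose in limma (58.3%, against 17.1% of all genes), with a median of -0.37. The 4 with the widest differences were Myl9 (-3.99), Actg2 (-2.81), Acta2 (-2.08) and Tagln (-1.49), genes of the contractile apparatus. Actin genes are alike in sequence, and the separate values of Actg2 and Acta2 are uncertain for that reason. The summed intensity of the 12 was 18411 and 17759 in WT and 6174 and 6413 in Zip13KO. Myh11, the myosin that defines mature smooth muscle, differed by 0.01 (limma adjusted p = 0.955), and Des, below the array medians throughout, had the highest difference of the 12 at 0.23 (0.0571); both were named after their values were seen. The part of these markers in the differences of Hspb8 and Cryab was not tested.

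Of 14 skeletal muscle markers none passed in limma, with 2 at an unadjusted p under 0.05. Their summed intensity ran from 1772 to 1872 in WT and from 1766 to 1859 in Zip13KO. Of 11 fibroblast markers, 10 were above the medians on all arrays, the exception being Lum. In this list 6 genes fell and 1 rose (63.6%, against 17.1% of all genes). Pdgfrb (-0.92), Col1a1 (-0.89) and Fn1 (-0.67) were among those that fell, and Pdgfra rose by 1.04. No epithelial (5 measured), endothelial (5) or Schwann cell marker (2) passed in limma, with 1, 1 and 0 at an unadjusted p under 0.05. Of 6 macrophage and leukocyte markers Cd68 rose (0.40) and Cd14 (-0.32) and Csf1r (-0.26) fell. In limma, Cd68 lost its call without WT replicate 2 (0.13, adjusted p = 0.562), as did Cd14 without Zip13KO replicate 2 (-0.25, 0.0917) and Csf1r without WT replicate 1 (-0.22, 0.212) or Zip13KO replicate 2 (-0.19, 0.255). The summed intensity of those 6 was 600 and 647 in WT and 588 and 607 in Zip13KO.

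Slc39a13 itself read 8.94 and 8.85 in WT and 8.89 and 8.98 on the arrays labelled Zip13KO, a difference of 0.04 (limma adjusted p = 0.820), so its row gives no check of the labels.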

How the data were processed

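Total RNA of fibroblasts was hybridised to 4 arrays. The authors deposited linear intensity, from 21.8 to 10826. The submitters' processing notes name Affymetrix Expression Console and RMA, and give no version. RMA equalises the arrays, so a shift of most genes together is hidden. The tests were planned for log2 values, so log2 of the intensity was taken, with no pseudocount or filter. Gene names came from the platform annotation; RefSeq gene tables (GRCm38.p6) gave neighbours and promoters. Rows with 1 symbol numbered 23521, and the brightest per gene was kept.

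Group differences came from limma 3.58.1 under R 4.3.3 (a linear model, eBayes with intensity trend, two-sided, Benjamini-Hochberg over 22180 genes), with 2 residual and 15.1 prior degrees of freedom. The script was tested on simulated data. Array medians lay between 94.5 and 96.1, and the number of arrays limits precision. Members and lists were chosen with earlier results of these data known. The naming rule gave the members, Slc39a13, the neighbours of each member, up to 4 called genes per list with the widest difference, and the 5 profiles nearest to Hspb8. Neighbours that did not pass are only counted, except those of Hspb8. The 13 alternatives changed the block, filter, normalization, variance prior, rows or arrays. Plots used matplotlib 3.10.9.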

Additional observations from a re-analysis of the deposited data

How the results depend on the processing

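Cryab and Hspa1b kept their direction and their side of the threshold under all 13 alternatives. Hspb1 did so under 12 and was at 0.24 (adjusted p = 0.0527) as the mean of its rows. With 1 array left out, differences ran from -3.38 to -3.21 for Hspb8, -2.10 to -1.91 for Cryab, -1.41 to -0.88 for Hspa1b, 0.39 to 0.50 for Hspb1, -0.18 to 0.17 for Hspb3 and -0.062 to 0.018 for Hspb7, so the last pair changed sign; Slc39a13 ran from -0.0055 to 0.090, Ccdc60 from -0.15 to 0.0094 and Srrm4 from -0.075 to 0.11. A lone array is then assumed to vary like the other group. The mean of its rows put Tcp1 at 0.0089. With all rows in the fit and adjustment, 1806 genes passed in place of 3786, and 21 list genes in place of 43. Hspb3 had no value after the filter on dim rows. With the replicate number as a block, 3364 genes passed, and so did Cryab, Hspa1b and Hspb1. The deviations of same-numbered replicates from their group means had a weak negative correlation over genes (-0.158), so the numbers are not shown to pair the samples. Crossed numbers, added after the data were seen, gave 5208 genes, and Hspb6 passed as well (-0.18, adjusted p = 0.0101). Dim rows (Hspb1, Hspb3, Hspb7, Hspa1a, and Hspb8 in Zip13KO) limit what can be seen, since no detection limit was given.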
